A study of Danio rerio with 4 samples.

Results

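Pou5f3, Nanog and Sox19b, the RNA-binding proteins Lin28a and Lin28b, and the stem cell factors Sall4, Zbtb16a and Gfra1a are encoded by 8 genes, which were taken by gene symbol from a table of read counts for 32520 zebrafish genes. All 8 symbols were found, each as 1 row. The level of each gene was compared between ovary and testis, to ask which of them were carried in the ovary, where eggs are stocked with RNA for the embryo, and which in the testis, which holds the dividing spermatogonia.

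In zebrafish, Pou5f3, Nanog and Sox19b are laid down in the egg as maternal RNA, open the chromatin of the early embryo and start transcription from its own genome. Lin28 proteins bind the precursors of the let-7 microRNAs and keep them from maturing, and SALL4 helps keep mammalian embryonic stem cells undifferentiated. In the mouse, PLZF, the product of the gene orthologous to zbtb16a, and GFRA1, the receptor subunit for the growth factor GDNF, mark undifferentiated spermatogonia.

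The libraries were 2 ovaries and 2 testes, each from an individual adult fish of the AB strain. All 4 fish were null controls, which had in their water neither exemestane, a drug that blocks oestrogen synthesis by aromatase, nor its solvent DMSO. Fish given either were not analysed here. The ovaries had 26137839 and 18085251 counts and the testes 11554811 and 12382674. Levels are given as CPM (counts set to a library of 1000000, scaled by TMM), in which 3 counts correspond to 0.159 to 0.202 CPM. CPM is not corrected for gene length, so levels are compared between libraries and not between genes. With 2 fish in each group, the p-values measure only the spread between these fish. All 7 oocyte marker genes were higher in ovary, and all 6 spermatocyte and 3 Sertoli cell marker genes were higher in testis.

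Of the 8 genes, pou5f3, nanog, sox19b, lin28a and sall4 were far higher in the ovaries, lin28b and zbtb16a did not pass the test, and gfra1a had too few counts to be tested. By edgeR's quasi-likelihood test, at a Benjamini-Hochberg adjusted p under 0.05, 5 of the 7 tested genes were higher in ovary, against 28.5% of all 21815 genes tested. None of the 7 was higher in testis (0 also at an unadjusted p under 0.05, and 0 by DESeq2), where 36.7% of all genes were called. In either direction 65.2% of all genes were called. Both ovaries lay above both testes for 6 of the 8 genes, against 36.6% of the genes tested, and both testes above both ovaries for 0 of the 8, against 48.1%. For the other 2 genes, lin28b and gfra1a, the groups overlapped. The separation of zbtb16a was narrow, at 74.5 CPM in the lower ovary and 73.4 CPM in the higher testis. It depended on the scaling, since relative to total counts testis 1 lay above both ovaries. These are whole gonads, so fewer cells of a type and less RNA per cell cannot be told apart.

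**Figure D1:**
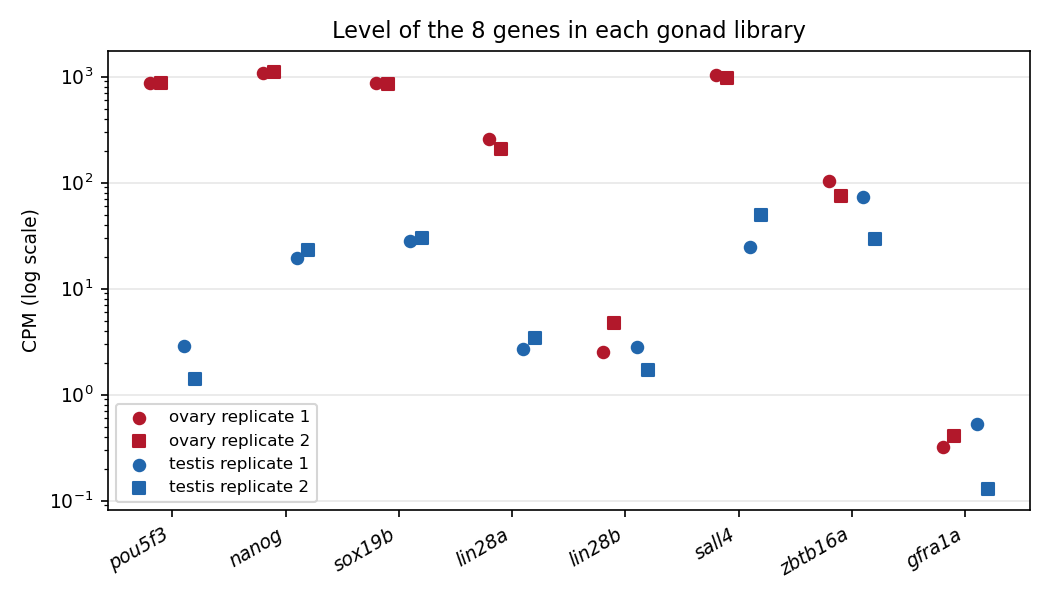
Level of each of the 8 genes in CPM (log axis) in 2 ovary libraries (red) and 2 testis libraries (blue), 1 point per fish (circle, replicate 1; square, replicate 2). For pou5f3 the ovaries sit at 871 and 864 CPM and the testes at 2.89 and 1.41, while the ovary and testis points of lin28b and gfra1a overlap.

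Among the factors that start embryonic transcription, pou5f3, the POU-domain factor related to mammalian Oct4, had the widest gap. The ovaries held 871 and 864 CPM of pou5f3 (16449 and 12860 counts) and the testes 2.89 and 1.41 CPM (44 and 22 counts). The ovary values were nearly equal, and the testes were apart by a factor of 2.06. The log2 fold change of testis over ovary was -8.66 ± 0.53 (SE; adjusted p = 0.000161), a level 403-fold higher in ovary. Without testis replicate 1 it was -9.27. Of the genes tested, 0.38% lay further towards ovary than pou5f3.

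nanog, which encodes a homeodomain factor, was at 1085 and 1115 CPM in the ovaries and at 19.5 and 23.1 CPM in the testes. The 2 fish of each sex were close and the groups stood far apart. The log2 fold change was -5.69 ± 0.37 (adjusted p = 0.000179), 51.6-fold higher in ovary. Its testis level rested on 297 and 362 counts, so nanog RNA was measured in both testes well above the limit of 3 counts.

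sox19b, the maternally supplied gene of the SoxB1 family of HMG-box factors, was at 878 and 856 CPM in the ovaries and at 28.2 and 30.3 CPM in the testes. As with nanog, the fish of a sex differed little. Its log2 fold change was -4.89 ± 0.32 (adjusted p = 0.000183), 29.6-fold higher in ovary. Of all genes tested, 1.53% lay further towards ovary than nanog and 1.96% further than sox19b.

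The other SoxB1 genes were at low counts, and none of them was higher in ovary. sox2, a factor of embryonic and neural stem cells, had 0 counts in both ovaries and 20 and 21 counts in the testes, at least 7.36-fold higher in testis (adjusted p = 0.00449). Of the pair of sox1 genes, ENSDARG00000069866 was at 0.635 and 0.134 CPM in the ovaries and at 2.69 and 2.81 CPM in the testes (log2 fold change 2.76 ± 0.80, adjusted p = 0.0238), a call that was lost without ovary replicate 2 (adjusted p = 0.0961). Without ovary replicate 1, which leaves 2 ovary counts, the ratio was 20.5 (5.49 to 172). The other sox1 gene, ENSDARG00000008131, had 0 and 3 counts in the ovaries and 8 and 14 in the testes, a ratio of 8.02 with a 95% counting interval of 2.41 to 41.8, and did not pass (adjusted p = 0.0552). It passed without testis replicate 1 (adjusted p = 0.0493) and with libraries scaled by total counts (0.0305), and its ratio was 3.53 (1.06 to 18.4) without ovary replicate 1. sox3 did not pass either: the ovaries were at 2.17 and 4.23 CPM and the testes at 1.64 and 2.24 CPM (adjusted p = 0.359). sox19a, the sister gene of sox19b, had 7, 1, 11 and 5 counts in ovary 1, ovary 2, testis 1 and testis 2 and was not tested. Of all SoxB1 counts, sox19b took 99.6% and 99.5% in the ovaries. In the testes its share was 80.4% (95% Wilson interval 76.8 to 83.5) and 79.9% (76.5 to 83.0). The lower share in testis thus went with a far lower level of sox19b, and the other SoxB1 genes together stayed low in both tissues.

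lin28a and lin28b, the genes of the let-7 inhibitors, differed from each other in these gonads. lin28a was at 257 and 209 CPM in the ovaries and at 2.69 and 3.45 CPM in the testes (41 and 54 counts). Every ovary value of lin28a was far above every testis value. Its log2 fold change was -6.25 ± 0.30 (adjusted p = 0.000108), 75.8-fold higher in ovary, with 1.23% of the genes tested further towards ovary. A second gene that carries the LIN28A symbol, ENSDARG00000004328, had 0 counts in both ovaries and in testis 1 and 2 counts in testis 2.

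lin28b was low everywhere, at 2.54 and 4.77 CPM in the ovaries and at 2.82 and 1.72 CPM in the testes. The values of the sexes overlapped, since testis 1 lay above ovary 1. The log2 fold change was -0.68 ± 0.65 (adjusted p = 0.384). lin28b is the only one of the 7 tested genes whose direction depended on the scaling, being 0.05 (adjusted p = 0.956) when libraries were scaled by total counts alone. Scaling by totals also moved the median log2 fold change of all genes from 0.45 to 1.19, and relative to that median lin28b was at -1.13 with TMM and -1.15 with totals. Of the counts of lin28a and lin28b together, lin28b took 0.977% (95% Wilson interval 0.738 to 1.29) and 2.23% (1.77 to 2.80) in the ovaries. In the testes it took 51.2% (40.7 to 61.6) and 33.3% (24.0 to 44.2). The makeup of the Lin28 transcripts thus differed between the tissues beyond the counting error, which is all these intervals cover, while the level of lin28b itself was not shown to differ.

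sall4, a zinc finger factor, was at 1032 and 965 CPM in the ovaries and at 24.9 and 49.8 CPM in the testes. The ovaries were close, and testis 2 was at 2.00 times the level of testis 1. Its log2 fold change was -4.74 ± 0.47 (adjusted p = 0.000518), 26.7-fold higher in ovary, with 2.09% of the genes tested further towards ovary. Without testis replicate 2 it was -5.34.

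Among the other Sall genes, 1 was higher in ovary and 4 were higher in testis. The sall1 gene ENSDARG00000074319 was at 24.0 and 32.7 CPM in the ovaries and at 5.84 and 5.24 CPM in the testes (log2 fold change -2.35 ± 0.35, adjusted p = 0.00207). The other sall1 gene, ENSDARG00000075891, went the opposite way, at 0.476 and 0.874 CPM in the ovaries against 8.01 and 13.2 CPM in the testes (3.98 ± 0.65, adjusted p = 0.00314). sall2 was at 1.96 and 2.15 CPM in the ovaries and at 18.6 and 14.7 CPM in the testes (3.02 ± 0.44, adjusted p = 0.0021). All these genes encode zinc finger proteins of the spalt family, which take part in organ formation. sall3b was at 0.212 and 0.0672 CPM in the ovaries and at 14.5 and 19.4 CPM in the testes (6.79 ± 0.68, adjusted p = 0.0005), with a log2 fold change of 6.18 without ovary replicate 2, and without ovary replicate 1 a single ovary count and a ratio of 253 (45.2 to 10000). sall3a had 1 and 3 counts in the ovaries and 24 and 29 in the testes, a ratio of 14.5 with a counting interval of 5.34 to 55.1 (adjusted p = 0.00744, and 0.0696 without ovary replicate 1). The ratio was 8.51 (2.76 to 42.6) without ovary replicate 1 and 32.4 (5.57 to 1300) without ovary replicate 2. sall4 made up 97.5% and 96.4% of the counts of the Sall family in the ovaries. In the testes it made up 33.9% (31.2 to 36.8) and 47.8% (45.4 to 50.2), a smaller share than in the ovaries.

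zbtb16a, the gene of a zinc finger repressor, was at 104 and 74.5 CPM in the ovaries and at 73.4 and 29.3 CPM in the testes. The lower ovary lay just above the higher testis, and the testes were further apart than the ovaries. The log2 fold change was -0.80 ± 0.44 and did not pass (adjusted p = 0.154). The value rested on testis replicate 1, since without it the log2 fold change was -1.62 and passed (adjusted p = 0.00845). With libraries scaled by total counts alone it was -0.03 (adjusted p = 0.963). Relative to the median of all genes it was -1.25 with TMM and -1.22 with totals.

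Its duplicate zbtb16b had 17 and 11 counts in the ovaries and 734 and 296 counts in the testes, or 48.2 and 18.9 CPM in the latter. Both testes were far above both ovaries. The log2 fold change was 5.34 ± 0.60 (adjusted p = 0.000799) with all libraries and 4.50 without testis replicate 1. Of the counts of both duplicates, zbtb16a took 99.1% and 99.0% in the ovaries, and 60.4% (58.1 to 62.6) and 60.8% (57.3 to 64.2) in the testes. The share of zbtb16a was thus nearly the same in both testes although both genes were lower in testis 2, with zbtb16a at 0.400 of its level in testis 1. Markers of several other cell types were also higher in testis 1, but 0 of the 6 germ cell markers were. Of the 16 genes known from spermatogonia that are described below, which include zbtb16b itself, 10 were higher in testis 1. Their summed level was 532 CPM in testis 1 and 689 CPM in testis 2, against 292 and 397 CPM in the ovaries. The gene dmrt1, which is 1 of the 16, gave 289 and 494 CPM of the sums in the testes. No share over all genes stands beside the counts of genes higher in testis 1, so no lean is read from them. The sums of the germ cell markers were 3442 and 4725 CPM in the testes and 1523 and 1314 CPM in the ovaries. Of 5 Leydig cell markers 4 were higher in testis 1, their summed level being 1732 CPM in testis 1 and 645 CPM in testis 2, against 239 and 292 CPM in the ovaries, and 1 of the 5 (cyp11c1) had 0 counts in an ovary. The gene insl3 alone gave 1149 CPM of the sum in testis 1 and 295 CPM in testis 2. All 3 leukocyte, all 3 liver and both red blood cell markers were higher in testis 1 as well, with sums of 27.4 against 16.3 CPM, 19.03 against 2.87 CPM and 11.6 against 5.37 CPM, and so were 5 of 6 spermatocyte markers, with sums of 1723 against 1547 CPM. Their sums in the ovaries were 3.02 and 10.0 CPM, 4.82 and 1.14 CPM, 1.91 and 5.71 CPM, and 13.8 and 17.1 CPM, and 1 liver marker had 0 counts in a library. The 3 Sertoli cell markers were higher in testis, and none was at 0. Their sums were 1015 and 1165 CPM in the testes and 42.7 and 20.6 CPM in the ovaries. Of the 3, 2 were higher in testis 1. The other, dmrt1, was at 289 and 494 CPM in the testes and at 33.4 and 0.807 CPM in the ovaries. The part of these cells in the levels of the zbtb16 genes was not tested.

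gfra1a, a co-receptor for Gdnf, had 6 counts in each ovary and 8 and 2 counts in the testes, or 0.318 and 0.403 CPM against 0.525 and 0.128 CPM. The groups overlapped, and the counts were too low for the filter of the test. With every gene of at least 1 count kept, the log2 fold change was -0.19 ± 0.93 (adjusted p = 0.873), so that a difference was not detectable at this depth. Its duplicate gfra1b had 0 counts in both ovaries and 10 and 29 counts in the testes, at least 6.96-fold higher in testis (adjusted p = 0.00936, and 0.0534 without ovary replicate 1). The bound was 3.64-fold without testis replicate 2, where the gene was not tested. gfra1a accounted for 6 of 6 counts of the pair in each ovary (61.0% to 100% by the Wilson interval), for 8 of 18 in testis 1 and for 2 of 31 in testis 2.

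**Figure D2:**
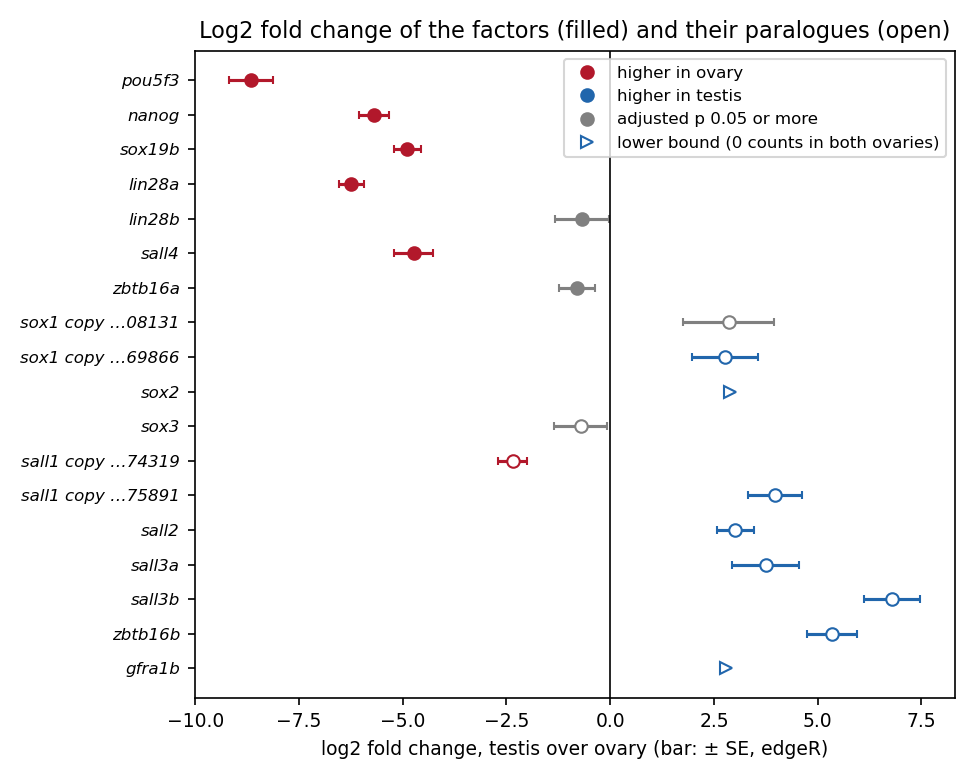
Log2 fold change of testis over ovary with its SE (edgeR, 2 fish per group) for the 7 tested factors (filled) and the 11 tested paralogues (open), where right-pointing triangles give lower bounds for genes with 0 counts in both ovaries. The factors lie between -8.66 and -0.68, and of the 11 paralogues 8 were higher in testis and 1 in ovary (2 and 1 with at least 10 counts in every library).

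Of the 11 paralogues tested, 1 was higher in ovary (9.09%, against 28.5% of all genes), 8 were higher in testis (72.7%, against 36.7%) and 2 did not pass. Their median log2 fold change was 3.75, or 2.88 with the 4 genes of at most 3 counts in each ovary at their lower bound, beside a median of 0.45 over all genes. The level of the paralogues was low, their summed level being 30.8 and 41.4 CPM in the ovaries against 104 and 82.8 CPM in the testes. Most of those higher in testis had fewer than 10 counts in an ovary and passed the filter through the testes. With at least 10 counts required in every library, 2 paralogues were higher in testis and 1 in ovary. Of all 15277 genes kept that way, 4566 were higher in testis and 4552 in ovary. Scaled by totals, 9 paralogues were higher in testis and 1 in ovary.

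**Figure D3:**
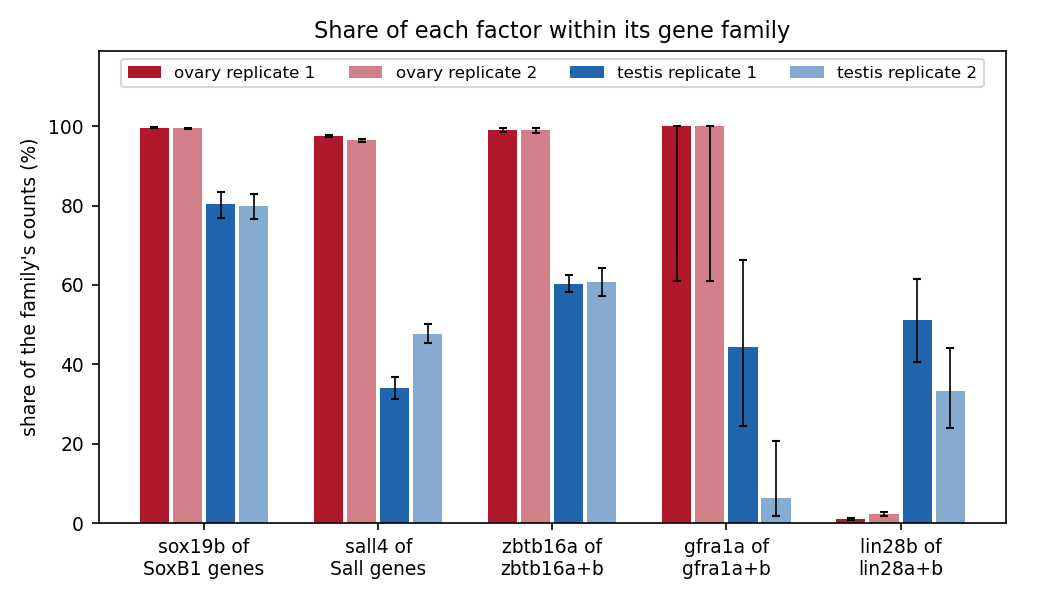
Share of each factor in the summed counts of its gene family (bars, percent; error bars, 95% Wilson interval for counting error only) in each of the 4 libraries. The share of sall4 is 97.5% and 96.4% in the ovaries and 33.9% and 47.8% in the testes, and that of lin28b is 0.977% and 2.23% in the ovaries and 51.2% and 33.3% in the testes.

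The testes held a small remainder of the 5 ovary genes. As a percentage of the ovary mean, pou5f3 was at 0.333% in testis 1 and 0.162% in testis 2. lin28a was at 1.15% and 1.48%, and nanog at 1.77% and 2.10%. sox19b was at 3.26% and 3.49%, and sall4 at 2.50% and 4.98%. The remainder thus ran from 0.162% to 4.98%, and the testes were apart by a factor of at most 2.06 for any of the 5 genes.

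Oocyte markers left remainders that spanned a wider range. gdf9, an oocyte growth factor, was at 3.36% and 9.93% of the ovary mean, bmp15, its partner, at 0.870% and 1.40%, and buc, which organises the Balbiani body of the oocyte, at 1.02% and 1.09%. zar1, a maternal factor of the oocyte, was at 0.584% and 0.0560%, and the egg coat gene zpcx at 0.245% and 0.00327%, which is 1 count in testis 2. The sum of the 7 oocyte markers was 9815 and 6013 CPM in the ovaries against 54.7 and 41.7 CPM in the testes, and none was at 0 in any library. Among the factors, pou5f3 was higher in testis 1, as were the markers zar1, zpcx and zp3b. In testis 2 nanog, lin28a and sall4 were higher, as were gdf9, bmp15 and figla, while sox19b and buc were only slightly so. Some of these rested on few counts in testis 1 and testis 2, such as 44 and 22 for pou5f3 and 61 and 6 for zar1. The source of this remainder was not tested.

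**Figure D4:**
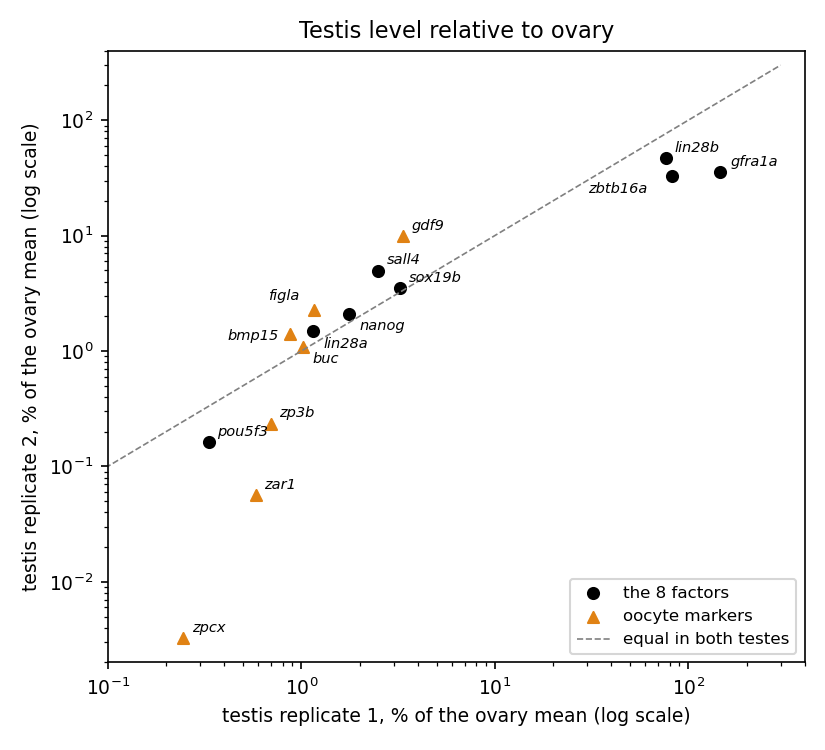
Level in each testis as a percentage of the mean of the 2 ovaries (log axes) for the 8 factors (black circles) and 7 oocyte markers (orange triangles), with a dashed line where both testes are equal. pou5f3 (0.333% and 0.162%) to sall4 (2.50% and 4.98%) lie among the oocyte markers, apart from lin28b, zbtb16a and gfra1a at the upper right.

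Genes that act beside Pou5f3, Nanog and SoxB1 at the start of embryonic transcription included h1m and foxh1, which were far higher in ovary. Of 16 tested, 9 were higher in ovary (56.2%, against 28.5% of all genes), 3 were higher in testis (18.8%, against 36.7%) and 4 did not pass, with a median log2 fold change of -0.91. With libraries scaled by total counts alone, the counts were 6 in ovary and 5 in testis. h1m, the linker histone of the egg, was at 506 and 498 CPM in the ovaries and at 3.22 and 0.830 CPM in the testes (-7.95 ± 0.72, adjusted p = 0.000408, and -9.23 and -7.30 without testis replicate 1 and 2). foxh1, a maternal factor that carries Nodal signals, was at 169 and 173 CPM in the ovaries and at 1.18 and 0.575 CPM in the testes (-7.60 ± 0.42, adjusted p = 0.000131, and -8.21 without testis replicate 1). The 3 genes higher in testis were sox2, eomesb, which had 1 and 0 counts in the ovaries and 8 and 12 in the testes (adjusted p = 0.00868), and ybx1. ybx1, which encodes an RNA-binding cold-shock protein, was at 157 and 145 CPM in the ovaries and at 240 and 261 CPM in the testes (0.73 ± 0.22, adjusted p = 0.0274). That call was lost without ovary replicate 1 (log2 fold change 0.79), ovary replicate 2 (0.59) or testis replicate 2 (0.66). With all libraries kept, it was lost by edgeR with the replicate block (0.73, adjusted p = 0.0693). It passed narrowly in edgeR with the size factors of DESeq2 (0.65, adjusted p = 0.0489). The eomesb call rested on few counts. It was not made by DESeq2 or after thinning to the smallest library, where sox2 and ybx1 were the 2 genes called. With any 1 library left out, eomesb was not called either.

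Of the 13 genes of the axis of Lin28 and let-7 that were tested, 9 were higher in ovary (69.2%, against 28.5% of all genes), 2 were higher in testis (15.4%, against 36.7%) and 2 did not pass, with a median of -1.46. With totals as the scaling, 6 of the 13 were higher in ovary and 2 in testis. trim71, a ubiquitin ligase whose RNA is a let-7 target, was at 435 and 347 CPM in the ovaries and at 33.7 and 35.3 CPM in the testes (-3.50 ± 0.26, adjusted p = 0.000253). igf2bp3, an RNA-binding protein of the egg, was at 666 and 480 CPM in the ovaries and at 8.99 and 7.15 CPM in the testes (-6.15 ± 0.36, adjusted p = 0.000142). tarbp2, a partner of Dicer, was at 158 and 154 CPM in the ovaries and at 9.12 and 8.75 CPM in the testes (-4.13 ± 0.23, adjusted p = 0.000128). These genes were high in ovary together with lin28a, and the ranges of the sexes were far apart.

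Both genes of this axis that were higher in testis were at low levels. igf2bp2b was at 0.371 and 0.874 CPM in the ovaries and at 5.71 and 4.28 CPM in the testes (3.02 ± 0.71, adjusted p = 0.0113, and 0.0558 without ovary replicate 1; its log2 fold change was 3.65 without ovary replicate 2). hmga2, a chromatin protein and let-7 target, was at 0.476 and 0.538 CPM in the ovaries and at 2.89 and 4.02 CPM in the testes (2.75 ± 0.66, adjusted p = 0.0117, and 0.0609 and 0.0514 without ovary replicate 1 and 2). The count of genes higher in testis was therefore 0 without ovary replicate 1 and 1 without ovary replicate 2.

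Of 16 other genes of the pluripotency network tested, 4 were higher in ovary (25.0%, against 28.5% of all genes), 8 in testis (50%, against 36.7%) and 4 did not pass, with a median of 0.93. Some of those higher in testis passed the filter through the testes. With at least 10 counts required in every library, 3 were higher in ovary and 6 in testis. Scaled by totals the counts were 3 and 10, and without ovary replicate 1 or ovary replicate 2 the count higher in testis was 4. tdgf1, the Nodal co-receptor, was at 76.9 and 57.2 CPM in the ovaries and at 5.31 and 5.43 CPM in the testes (-3.64 ± 0.28, adjusted p = 0.000272). rif1, which sets the timing of DNA replication, was at 1695 and 1229 CPM in the ovaries and at 144 and 154 CPM in the testes (-3.30 ± 0.40, adjusted p = 0.00104). prdm14, whose mouse orthologue specifies germ cells, had 0 counts in both ovaries and 234 and 273 in the testes, at least 91.0-fold higher in testis (adjusted p = 0.000621). klf2b, a Krüppel-like factor, was at 0.212 and 1.21 CPM in the ovaries and at 17.6 and 11.9 CPM in the testes (4.41 ± 0.83, adjusted p = 0.00495, and 3.62 and 5.999 as the log2 fold change without ovary replicate 1 and 2).

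For the Gdnf pathway, ligands and most co-receptors were low in all 4 gonads. Of 14 tested genes 5 were higher in ovary (35.7%, against 28.5% of all genes), 7 in testis (50%, against 36.7%) and 2 did not pass, with a median of 1.97. Of the 7, 5 had at most 3 counts in each ovary and passed the filter through the testes. With at least 10 counts required in every library, 3 were higher in ovary and 3 in testis. Of all 15277 genes kept that way, 4552 were higher in ovary and 4566 in testis. Scaled by totals the counts were 3 and 9, and with TMM the count higher in ovary was 3 without ovary replicate 2 or without testis replicate 1. Among the ligands, the gdnf gene ENSDARG00000103764 had 0 counts in both ovaries and 53 and 15 in the testes, at least 12.3-fold higher in testis (adjusted p = 0.00954). The bound was 5.32-fold without testis replicate 1 and 19.3-fold without testis replicate 2. The other gdnf gene, ENSDARG00000039959, had 1, 0, 3 and 3 counts and was not tested. artnb, the gene of the related ligand artemin, had 0 counts in both ovaries and 30 and 25 in the testes, at least 9.89-fold higher in testis (adjusted p = 0.00418). All 3 genes were thus near the limit of detection in the ovaries.

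ret, the receptor kinase that signals with Gfra1, was at 1.11 and 0.941 CPM in the ovaries and at 4.07 and 1.41 CPM in the testes (1.40 ± 0.74) and did not pass (adjusted p = 0.140). Its log2 fold change was 0.43 without testis replicate 1. With libraries scaled by total counts it was 2.17 and passed (edgeR adjusted p = 0.0488). The Etv5 genes, whose mouse orthologue responds to GDNF in spermatogonia, were both higher in ovary. etv5a was at 347 and 284 CPM in the ovaries and at 14.4 and 19.6 CPM in the testes (-4.21 ± 0.29, adjusted p = 0.00021), and etv5b at 158 and 201 CPM against 9.58 and 7.79 CPM (-4.37 ± 0.27, adjusted p = 0.000167). Both encode ETS-domain transcription factors.

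Genes known from spermatogonia, mostly in the mouse, were called about as often in each direction as genes at large. Of 16 tested, 4 were higher in ovary (25.0%, against 28.5% of all genes), 6 in testis (37.5%, against 36.7%) and 6 did not pass, with a median of 1.06. With totals as the scaling the counts were 2 and 9, and with TMM the count higher in ovary was 2 without ovary replicate 2 or without testis replicate 2. nanos2, an RNA-binding regulator of male germline stem cells in the mouse, had 0 and 1 ovary counts and 57 and 70 testis counts. The ratio was 139, with a counting interval of 24.5 to 5525 (adjusted p = 0.0015). Without ovary replicate 1 the ratio was 61.2 (10.8 to 2430), and without ovary replicate 2 the remaining ovary had 0 counts. pou3f1, a POU-domain factor of cultured mouse spermatogonial stem cells, had 0 counts in both ovaries and 112 and 97 in the testes, at least 37.6-fold higher in testis (adjusted p = 0.00195). nanos3, which is supplied maternally in zebrafish, was at 116 and 222 CPM in the ovaries and at 0.787 and 0.447 CPM in the testes (-8.08 ± 0.52, adjusted p = 0.000179). cxcr4a, a chemokine receptor, was at 2.22 and 8.07 CPM in the ovaries and at 1.31 and 0.447 CPM in the testes (-2.53 ± 0.91, adjusted p = 0.0487). That call was lost without ovary replicate 2 (log2 fold change -1.40), testis replicate 1 (-3.49) or testis replicate 2 (-1.96). With all libraries kept, it was also lost by edgeR with totals as the scaling (-1.83, adjusted p = 0.143) or with the replicate block (-2.36, adjusted p = 0.113). It was lost as well by edgeR's legacy quasi-likelihood test (-2.54, adjusted p = 0.0508) and with every gene of at least 1 count kept (-2.58, adjusted p = 0.0698). Both testes thus held transcripts of nanos2 and pou3f1, which were picked for the largest change towards testis in this list. In the ovaries these were at or near 0 counts, so both genes passed the filter through the testes. zbtb16a did not pass the test, and gfra1a was close to the limit of 3 counts in every library.

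**Figure D5:**
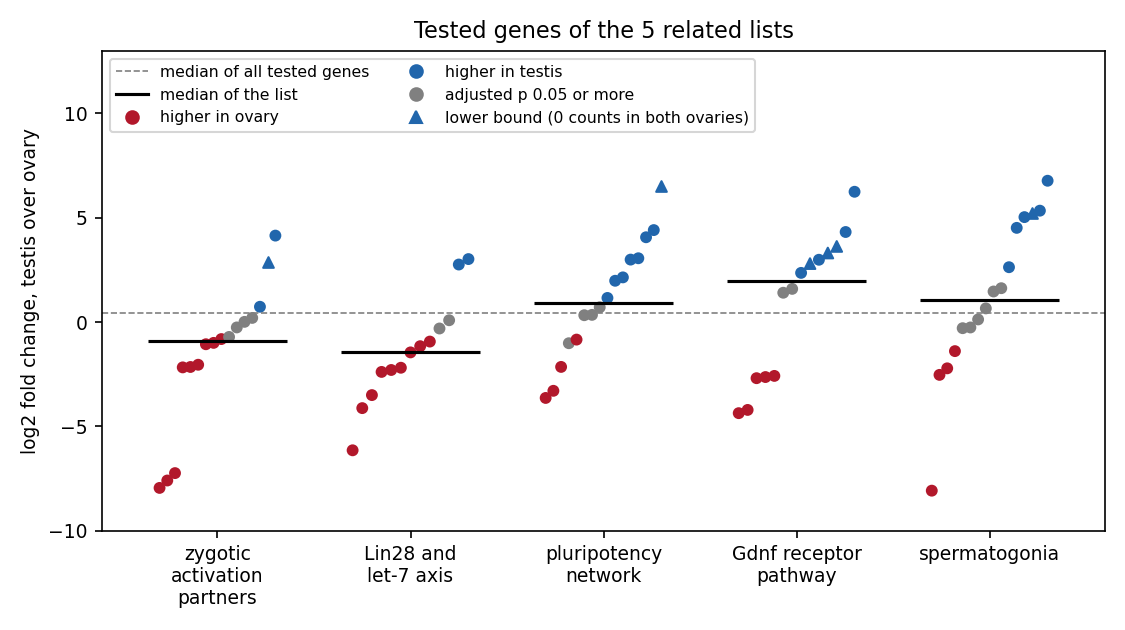
Log2 fold change of testis over ovary for the tested genes of 5 lists (points, sorted within each list; triangles, lower bounds), with the median of each list (black line) and of all 21815 genes (dashed, 0.45). The medians are -0.91 for zygotic activation partners, -1.46 for the Lin28 and let-7 axis, 0.93 for the pluripotency network, 1.97 for the Gdnf pathway and 1.06 for spermatogonia.

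Likeness of profile was measured as the root mean square difference of centred log2 CPM over the 4 libraries, a description with 2 fish per sex. A prior count of 2 was added, which draws in the change of genes with few counts. The 2 genes most like pou5f3 were 42sp43 (0.100), whose Xenopus orthologue is a storage particle protein of the oocyte, and cldng (0.203), a claudin of tight junctions. For nanog they were st6galnac1.2 (0.119), a sialyltransferase, and map1lc3c (0.136), an autophagy protein. For sox19b they were srgap1b (0.0762) and ftr86 (0.0918), and for lin28a the transcription factor gene bach2a (0.136) and the oocyte growth factor gene bmp15 (0.183). sall4 was closest to slc1a8a (0.0264) and zdhhc18 (0.0406). Of these, slc1a8a had 91 and 69 counts in the ovaries and 0 and 2 in the testes and a fitted log2 fold change of -6.03 against -4.74 for sall4, so its likeness came with the prior count, whereas zdhhc18 was at -4.75. The closest genes were gab2 (0.0575) and atg12 (0.0779) for lin28b, and for zbtb16a unm_sa39967 (0.0709) and cast (0.0941). Within the 8 genes, the closest pairs were lin28a with nanog (0.283), sall4 with sox19b (0.318) and nanog with sox19b (0.405), whereas the gene nearest to pou5f3 was lin28a (1.32).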

How the data were processed

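The data were RNA-seq libraries of whole gonads from 2 females and 2 males. Per the labels, RNA was extracted from each individual and depleted of ribosomal RNA, and libraries kept strand information. The study's methods give poly(A) selection for adult libraries, which may not cover these null controls and would undercount stored transcripts with short tails. Per the methods, the authors aligned reads with HISAT2 2.0.5 to GRCz11, removed duplicates with SAMtools 1.5, which can compress abundant genes, and counted reads per gene with HTSeq 0.9.1. The deposited values are raw counts, used as deposited, and 0 sample columns were left unused. Reads shared by near-identical genes may be lost or split. Symbols were found for 29201 of 32520 gene IDs. Where several IDs share a symbol, the ID is printed, and listed genes that could not be matched are not reported. A RefSeq table of a later build served for names only, so no coordinates or sequences are given.

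The test used edgeR 4.0.16 in R 4.3.3 (filterByExpr, TMM, quasi-likelihood test of testis against ovary, Benjamini-Hochberg adjustment, threshold 0.05). It was tested on simulated data. There it recovered 88 of 100 genes changed by 3 on the log2 scale and 39 of 99 changed by 2, with 6 false calls. Few genes were changed there, in both directions alike and with 1 dispersion for all genes, whereas 65.2% of genes were called in these data. Recovery in these data may therefore differ. Alternatives were DESeq2 1.42.0, other scalings and filters, thinning, a replicate block and leaving out each library. A fold against 0 counts is a lower bound set at 3 counts per library, and such genes have no fitted value in the text. Intervals of shares and ratios cover counting error at 95%. Likeness used a prior count of 2. Figures were made in Python 3.11.15 with matplotlib 3.10.9.

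The 8 genes and all lists were chosen with earlier results of these data known. The text names the 8 genes, their paralogues, trim71, ret and both gdnf genes, up to 2 genes in each direction with the largest change and at least 1 CPM in a group from each related list, and the 2 genes most like each tested gene. eomesb was named after its values were seen, as were the marker genes named singly and the duplicates under other observations.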

Additional observations from a re-analysis of the deposited data

How the results depend on the processing

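The calls and directions of pou5f3, nanog, sox19b, lin28a and sall4 held under all 12 alternatives, with adjusted p-values of at most 0.0022, 0.00199, 0.00199, 0.00192 and 0.00402. lin28b stayed uncalled and reversed to 0.046 (log2) with library size only. zbtb16a was called at -0.92 with the replicate block (adjusted p = 0.0472) and ranged from -1.62 to -0.30 with libraries left out in turn, where 5 to 6 of the 8 genes were higher in ovary. Of all genes, 3833 in place of 6217 were higher in ovary with library size only, and 4566 in place of 8002 were higher in testis with at least 10 counts in every library. With a library left out, 5043 to 5772 were higher in ovary and 5424 to 7193 in testis. Such fits assume that a lone fish varies like those of the other sex. Replicate numbers do not pair the fish in the labels (their deviations correlated at -0.05 over 21815 genes), and the replicate block gave 5610 and 7191 calls. DESeq2 gave 6570 and 7453. Over these results and the list counts, 270 alternative values were rated the same, 23 moved, 2 gained a call and 1 reversed. For a gene, the same meant an unchanged call and direction. For a count of genes it meant a similar number, and for a share a value within its interval. Of 363 alternative values of the other named genes, 17 lost and 3 gained a call. gfra1a gave a value only with at least 1 count in all libraries together. Shares after thinning lay within their intervals. Depth limits the statements on gfra1a, gfra1b and sox2, and the causes of these changes were not tested.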

Other observations

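Some other gene pairs with like names were called in opposite directions, and the examples here were chosen after their values were seen. eomesa, a maternal T-box factor, was at 188 and 226 CPM in the ovaries and at 1.44 and 1.28 CPM in the testes (log2 fold change -7.24 ± 0.29, edgeR adjusted p = 9.73e-05). eomesb was called higher in testis by edgeR on few counts, a call that DESeq2 did not make. Of the pair of myc genes, ENSDARG00000007241 was at 96.7 and 84.6 CPM in the ovaries and at 20.3 and 20.5 CPM in the testes (-2.15 ± 0.22, adjusted p = 0.000589), and ENSDARG00000045695 at 2.44 and 4.84 CPM against 12.5 and 16.1 CPM (1.98 ± 0.51, adjusted p = 0.0159). ccnd2a, a D-type cyclin, was at 37.9 and 48.6 CPM in the ovaries and at 13.1 and 5.43 CPM in the testes (-2.22 ± 0.46, adjusted p = 0.00697), and ccnd2b at 1.06 and 1.34 CPM against 40.5 and 38.0 CPM (5.03 ± 0.35, adjusted p = 0.000214).

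Over the whole table, 1809 pairs of genes shared a symbol or had symbols differing only in a final a or b, with both copies tested. Both copies were called in 774 of these pairs. Most went in the same direction, 479 (61.9%), with both copies higher in ovary in 195 (25.2%) and both higher in testis in 284 (36.7%), and 295 (38.1%) went in opposite directions. Of the calls over all genes, 43.7% were higher in ovary and 56.3% in testis. Pairs by name are not all true duplicates, so these counts are a description of the table.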
